A study of Mus musculus with 20 samples.

Results

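The enzymes that build and sulfate glycosaminoglycans were followed in 2 compartments of the intervertebral disc: the soft core, or nucleus pulposus (NP), and the fibrous outer ring, or annulus fibrosus (AF). They are 43 of the 51789 genes in the deposited expression table, taken by symbol. The list holds 6 linker enzymes, 6 enzymes that start and extend chondroitin chains, 9 that sulfate or epimerise chondroitin and dermatan, 5 that start and extend heparan chains and 9 that modify heparan. It also holds 5 genes of sulfate and sugar nucleotide supply and 3 hyaluronan synthases. All libraries came from 24-month-old BL6 mice with no genetic change given in the labels. For 6 months from 18 months of age the mice had received intraperitoneal injections, whose number per week is not given in the labels, of DMSO alone (vehicle) or of MDL-800 dissolved in DMSO, so that the controls carried the solvent too. MDL-800 is a small-molecule activator of SIRT6, a chromatin deacylase that depends on NAD, and the dose is not given in the labels. Each tissue gave 5 libraries from vehicle mice and 5 from MDL-800 mice. The labels call the samples cells, whereas the protocol describes tissue dissected under a microscope and put straight into stabilising solution. Whether libraries of a group came from separate mice is not stated, so p-values measure the spread between these samples.

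A glycosaminoglycan is a long chain of alternating sugars. Chondroitin, dermatan and heparan chains grow on a serine of a proteoglycan core protein. A short linker is laid down there first, the enzyme that adds the next sugar decides between chondroitin and heparan, polymerases extend the chain, and sulfotransferases and epimerases modify it with sulfate from the donor PAPS. Hyaluronan is made at the cell membrane without a core protein and carries no sulfate. In the disc the negative charge of chondroitin sulfate on aggrecan holds the water that lets the nucleus bear load.

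Depth, estimated from the steps of low values, lay between 12.6 and 21.4 megareads per library. The summed level of 10 NP markers (among them Krt19, T and Car3) was 25619 to 32855 scaled FPKM in the 10 NP libraries. In AF it was 2498 to 15093, with AF vehicle library 9 at the top of that range. Not every NP marker was higher in NP. Of 9 tested in vehicle libraries, 8 were higher in NP and 1 lower (limma adjusted p under 0.05). In MDL-800 libraries 7 were higher and 1 lower. The summed level of 8 AF markers was 798 to 1567 in NP and 1730 to 5434 in AF. Of these 8, 7 were called lower in NP and 0 higher in vehicle libraries, and 6 and 0 in MDL-800 libraries. The sums for macrophages, bone and endothelium were higher in every AF library than in every NP library, whereas those for skeletal muscle and cartilage overlapped, the 7 cartilage markers found summing to 266 to 522 in NP and 514 to 2940 in AF. Single cartilage markers went both ways. Of 6 tested, 1 was called higher in NP and 2 lower in vehicle libraries, and 1 and 4 in MDL-800 libraries. The 7 macrophage markers summed to 65.7 to 381 in NP and 1057 to 2592 in AF, with all 7 at 1 FPKM or more in every AF library. The 8 skeletal muscle markers summed to 12.8 to 1521 in NP and 972 to 10398 in AF, and the 8 bone markers to 1.62 to 169.8 in NP and 253 to 2092 in AF. The 5 endothelial markers summed to 0.751 to 5.25 in NP and 40.8 to 86.9 in AF. The 7 neutrophil markers summed to 180 to 2972 in NP and 5826 to 31504 in AF. The 7 red blood cell markers summed to 27.6 to 208 in NP and 598 to 3222 in AF. Sums for fat, mast cells, B and plasma cells and nerve were likewise higher in every AF library than in every NP library. Scaled FPKM is FPKM, fragments per kilobase of transcript, normalised for depth, and here divided by a factor for each library.

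Expressed per length, the module was led in NP by a gene that starts chondroitin chains and by one that opens the linker shared with heparan. In NP vehicle libraries Csgalnact1, which adds the first N-acetylgalactosamine of a chondroitin chain, averaged 177 ± 48.1 scaled FPKM (SD, n = 5). Xylt1, the xylosyltransferase that opens the linker, averaged 172 ± 18.3 (SD, n = 5), a level not apart from that of Csgalnact1 beyond the spread. Next came Ugdh, which makes UDP-glucuronic acid, at 129 ± 17.6, and Sulf2, an extracellular enzyme that removes sulfate from heparan, at 103 ± 1.97 (SD, n = 5). In AF vehicle libraries the order differed. Ugp2, which makes UDP-glucose, stood at 94.7 ± 27.0, Csgalnact2 at 89.5 ± 21.5, Ugdh at 73.5 ± 6.61, Xylt1 at 61.4 ± 11.0 and Chst12 at 54.5 ± 22.1 (SD, n = 5), and the libraries of neighbours in this order overlapped. At the low end, Has3 reached 1 FPKM in 0 of 20 libraries and Chst7 in 2 of 20, both in AF, so these 2 members were not tested, and the other 41 were.

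**Figure D1:**
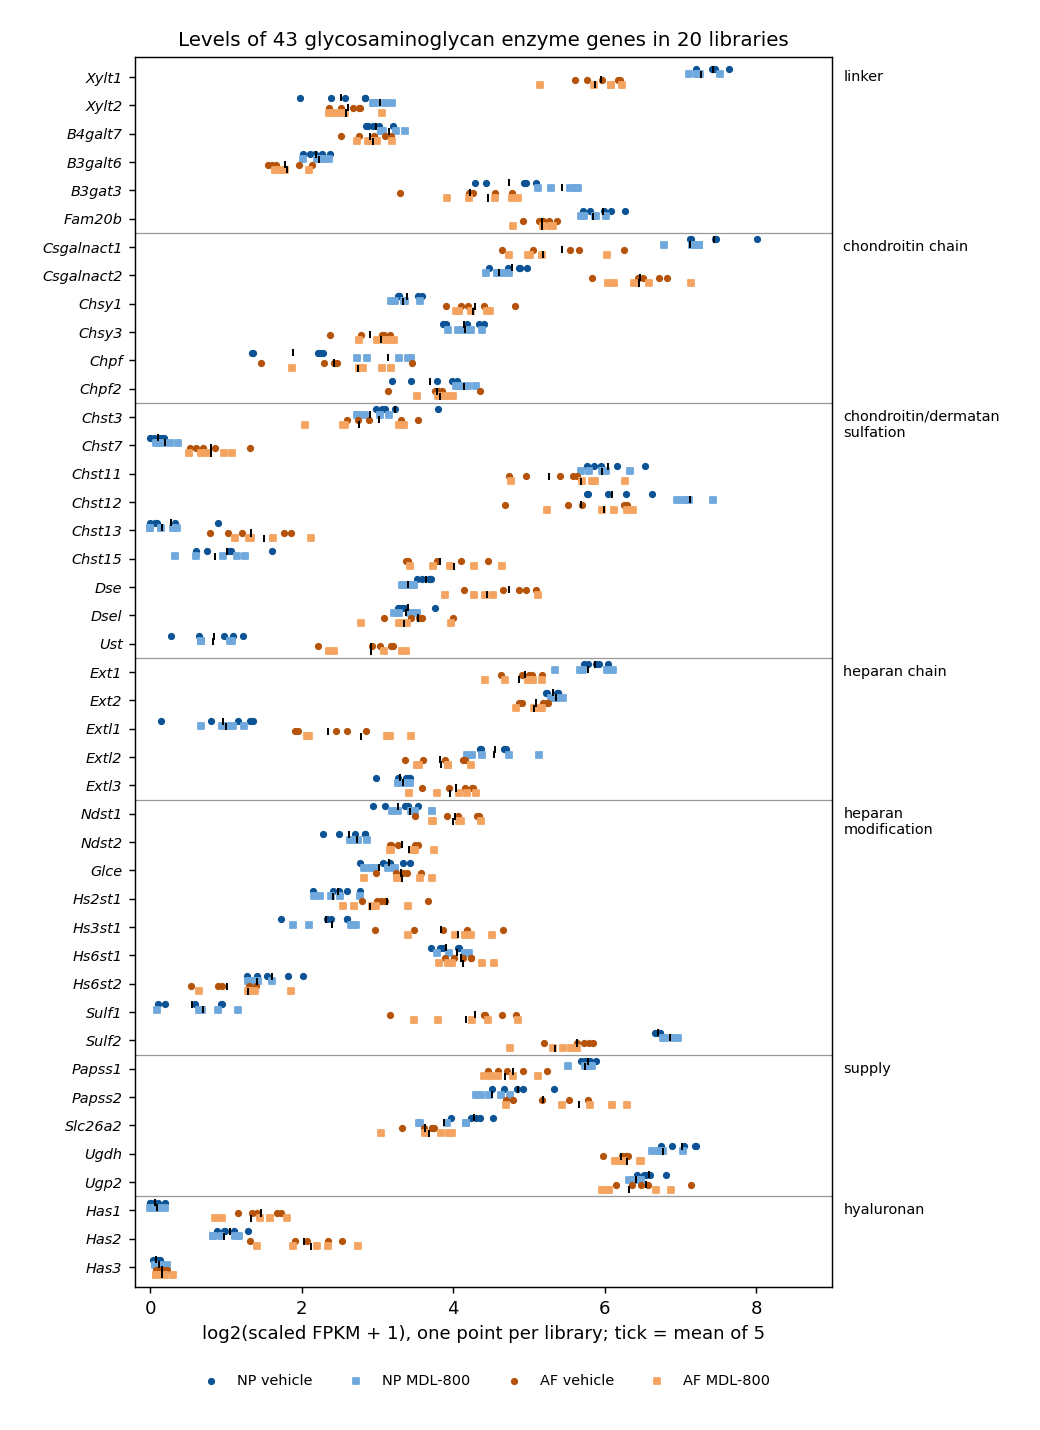
Level of each of the 43 members as log2(scaled FPKM + 1), with a point for each of the 20 libraries and a tick at the mean of each group of 5; horizontal lines separate the roles. Blue NP points and orange AF points are well apart for Csgalnact1, Csgalnact2, Xylt1, Chst15, Ust and Sulf1, whereas light MDL-800 and dark vehicle points of a tissue mostly mix; Chst12 in NP is an exception.

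Summed over members, the linker genes stood at 276 ± 22.8 scaled FPKM in NP vehicle and 129.5 ± 19.3 in AF vehicle libraries (SD, n = 5), of which Xylt1 alone gave 172 ± 18.3 and 61.4 ± 11.0. The chondroitin chain genes summed to 246 ± 49.4 in NP and 179 ± 23 in AF, and the supply genes to 325 ± 28.3 and 244 ± 24.5. Heparan modification differed little as a sum, at 151 ± 3.6 in NP against 142.5 ± 16.5 in AF (SD, n = 5), although members of it were called in both directions. The hyaluronan synthases summed to 1.18 ± 0.205 in NP and 5.15 ± 1.52 in AF.

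The comparison of NP with AF in vehicle-treated mice asked which enzymes mark each compartment of the old disc. A gene is called higher or lower where limma's adjusted p over all 16383 genes tested was under 0.05, and fold changes are differences of log2(scaled FPKM + 1), which understate the change of low genes. Of 41 tested members 13 were called higher in NP and 15 lower, or 31.7% and 36.6%, beside 21.8% and 33.9% of all genes tested. Among those lower, Sulf1, Chst15, Ust, Has1, Has2 and Chst13 passed the filter (1 FPKM in 5 or more libraries) only because of their AF libraries. NP and AF libraries did not overlap for 24 members (58.5%), beside 41.0% of all genes tested. The members' median difference was -0.10, beside -0.08 over all genes. In bulk tissue, fewer cells of a type and less RNA per cell cannot be told apart. The markers of other cells given above moved with these groups, and their part in the tissue differences was not tested. Without AF vehicle library 9, which had the highest NP marker sum in AF, 13 members were called higher and 15 lower.

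Linker genes were called in 3 of 6 cases (50%), all higher in NP, beside 21.8% of all genes tested called higher. Xylt1 (ENSMUSG00000030657, chr7:117380979-117673580, GRCm38) stood at 198, 171, 170.2, 174 and 146 scaled FPKM in the NP vehicle libraries (numbers 1, 2, 3, 5 and 6), and at 61.5, 72.9, 71.3, 53.6 and 47.6 in AF vehicle libraries 8, 9, 10, 12 and 13. Every NP library lay above every AF library, and the difference was 1.48 (SE 0.13; limma adjusted p = 1.34e-05). Its paralogue Xylt2 was low and level, at 4.86 ± 1.36 in NP against 5.16 ± 0.729 in AF (SD, n = 5; limma adjusted p = 0.672). Fam20b, the kinase that phosphorylates the linker xylose, was higher in NP by 0.80 (SE 0.13; limma adjusted p = 0.000314). B3galt6, which adds the second galactose, was higher by 0.40 (SE 0.14; limma adjusted p = 0.0329), with overlapping groups, and this call was lost on leaving out any of 6 single libraries (limma adjusted p up to 0.0750). B4galt7 and B3gat3, which add the first galactose and the glucuronic acid, were not called.

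Among the enzymes that start and extend chondroitin chains, members of a pair with like activity went opposite ways. Csgalnact1 (ENSMUSG00000036356, chr8:68356781-68735146) stood at 257, 175, 177, 138 and 140.2 scaled FPKM in the NP libraries, against 45.6, 75.5, 32.3, 49.7 and 24.0 in AF. The groups did not overlap, and the difference was 2.01 (SE 0.28; limma adjusted p = 0.00016). Csgalnact2 (ENSMUSG00000042042, chr6:118107452-118139140), which catalyses the same step, stood at 30.4, 25.4, 28.2, 21.2 and 28.4 in the NP libraries, against 104, 55.9, 112, 90.0 and 85.5 in AF. Here every NP library lay below every AF library, by 1.68 in the mean (-1.68, SE 0.18; limma adjusted p = 3.09e-05). The polymerases split likewise. Chsy3 stood at 20.3, 19.3, 13.5, 17.1 and 13.9 in NP against 7.35, 7.99, 7.52, 5.88 and 4.18 in AF, without overlap, a difference of 1.24 (SE 0.18; limma adjusted p = 0.000167). Chsy1 averaged 9.52 ± 1.15 in NP against 19.0 ± 5.12 in AF (SD, n = 5), and was lower in NP by 0.90 (-0.90, SE 0.16; limma adjusted p = 0.00086). Chpf and Chpf2, which aid these polymerases, were not called (limma adjusted p = 0.214 and 0.757).

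The share of a pair's summed FPKM that fell to each paralogue was compared between the tissues. Csgalnact1 made up 83.1% to 89.4% of its pair in NP vehicle libraries and 21.9% to 57.4% in AF vehicle libraries. Chsy3 made up 55.9% to 69.9% of Chsy3 and Chsy1 in NP and 17.1% to 36.4% in AF. For Sulf2 within Sulf2 and Sulf1 the shares were 99.1% to 99.9% in NP and 63.6% to 87.6% in AF. None of these ranges overlapped between the tissues. Among AF vehicle libraries the highest share of Csgalnact1, Sulf2, Chsy3 and Papss1 was each time that of library 9, which had the highest NP marker sum in AF. Papss1 held 59.7% to 71.6% of the PAPS synthases in NP and 31.7% to 59.5% in AF. In MDL-800 libraries Csgalnact1 took 85.6% of its pair in NP and 29.9% in AF, Chsy3 64.7% and 28.8%, and Sulf2 99.4% and 69.6%, as means of 5 libraries.

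**Figure D2:**
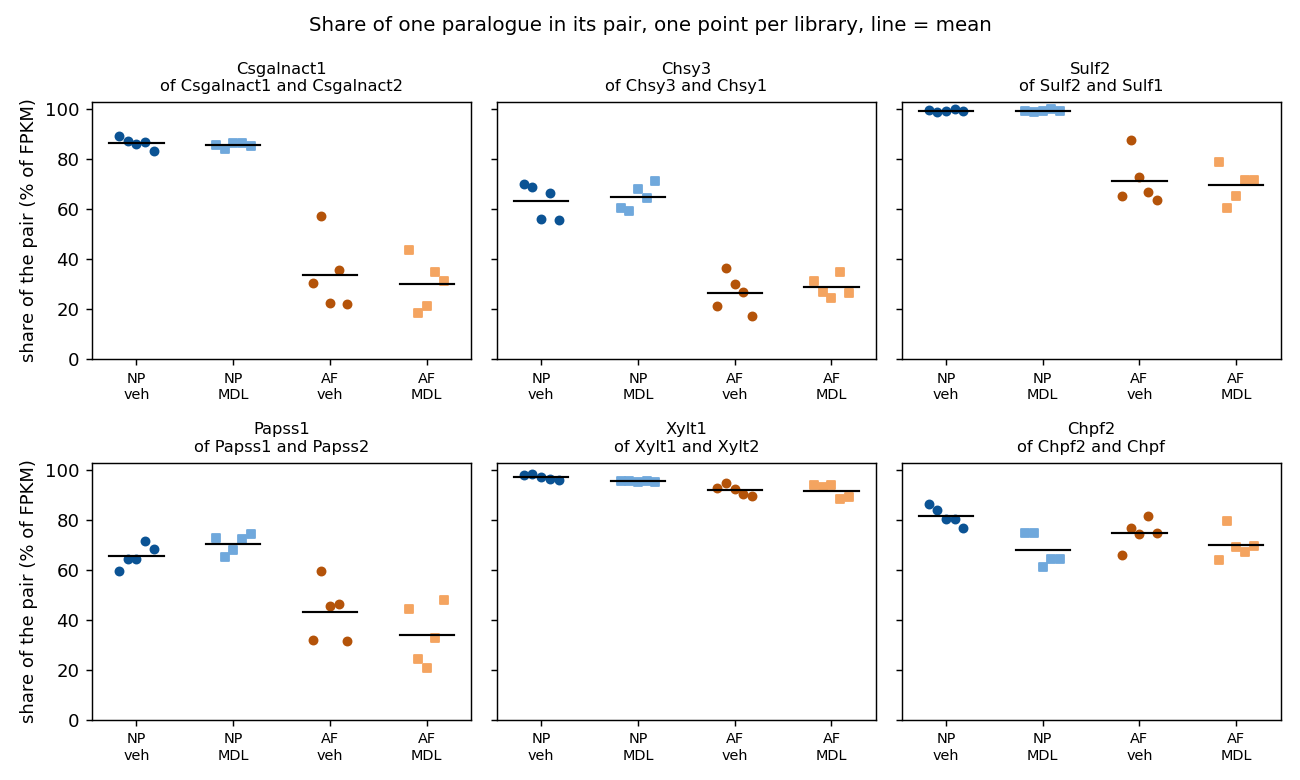
Share of the summed scaled FPKM of a pair of paralogues that belongs to the gene named first, in percent, with a point for each library and a line at the mean of each group of 5. Csgalnact1, Chsy3 and Sulf2 take larger shares in NP than in AF in every library of both treatments, whereas Xylt1 dominates its pair in both tissues.

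Of 8 tested genes that sulfate or epimerise chondroitin and dermatan, 4 were called lower in NP (50%) and 1 higher (12.5%). Over all genes tested these shares were 33.9% and 21.8%. Chst15 (ENSMUSG00000030930, chr7:132235780-132317228), which adds a further sulfate to galactosamine that is already sulfated, stood at 1.05, 0.516, 1.08, 0.680 and 2.05 scaled FPKM in the NP libraries, against 16.2, 9.39, 12.8, 9.56 and 21.0 in AF. It was low in all 5 NP libraries, and the difference was -2.81 (SE 0.25; limma adjusted p = 1.19e-05). Ust, the uronyl 2-O-sulfotransferase, stood at 0.204, 0.567, 1.12, 1.34 and 0.958 in the NP libraries, against 7.15, 3.64, 8.23, 6.61 and 8.04 in AF. Its groups did not overlap either (-2.07, SE 0.23; limma adjusted p = 4.43e-05), and AF library 9 was the lowest of its group. Chst15 and Ust each reached 1 FPKM in 14 of 20 libraries, and both needed AF libraries to pass the filter on low values. Dse, the epimerase that turns chondroitin into dermatan, stood at 11.8, 11.0, 12.0, 11.9 and 10.5 in the NP libraries, against 30.0, 16.6, 28.1, 33.1 and 24.1 in AF, again without overlap (-1.10, SE 0.16; limma adjusted p = 0.000214). The second epimerase gene, Dsel, was at 9.64 ± 1.66 and 10.8 ± 2.67 (SD, n = 5) and was not called (limma adjusted p = 0.524).

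The 4-O-sulfotransferases of chondroitin did not move together. Chst11 stood at 91.2, 70.3, 60.7, 53.2 and 56.8 in the NP libraries, against 48.5, 41.3, 30.2, 25.6 and 46.8 in AF, all NP libraries above all AF libraries (0.79, SE 0.20; limma adjusted p = 0.00683). Chst12 overlapped between the tissues, at 69.4 ± 18.5 and 54.5 ± 22.1 (SD, n = 5; limma adjusted p = 0.258). Chst13 was a low AF gene, at 0.257, 0.0413, 0.0607, 0 and 0.859 in NP and 2.63, 1.31, 0.725, 1.03 and 2.41 in AF. It passed the filter on low values through AF libraries alone and its groups overlapped (limma adjusted p = 0.00399, and 0.0679 under quantile normalization). Chst3, a 6-O-sulfotransferase, was at 8.61 ± 2.45 and 7.32 ± 2.34 (SD, n = 5; limma adjusted p = 0.407). Chst7, the other 6-O-sulfotransferase, was listed at 0 in NP vehicle library 2, stood at 0.0322 to 0.128 in the other NP vehicle libraries and at 0.434 to 1.48 in AF vehicle libraries.

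Heparan synthesis showed 4 calls among 5 genes that start and extend chains, 2 in each direction (40% each). Over all genes tested 21.8% were called higher and 33.9% lower. Ext1, a subunit of the heparan polymerase, was at 57.7 ± 5.10 in NP against 30.1 ± 4.26 in AF (SD, n = 5), higher by 0.92 (SE 0.11; limma adjusted p = 7.04e-05). Its partner Ext2 was at 38.9 ± 2.12 and 33.3 ± 4.29 (SD, n = 5) and was not called (0.23, SE 0.10; limma adjusted p = 0.0778). Extl2, a transferase that can cap the linker, was higher in NP by 0.72 (SE 0.16; limma adjusted p = 0.00317), and Extl3, which adds the first N-acetylglucosamine of heparan, was lower by 0.74 (-0.74, SE 0.15; limma adjusted p = 0.00162). Extl1, another transferase of the family, stood at 0.107, 0.743, 1.55, 1.22 and 1.49 in the NP libraries, against 5.05, 2.75, 4.44, 2.85 and 6.19 in AF. The groups were apart, and the difference was -1.40 (SE 0.27; limma adjusted p = 0.00113).

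Modifiers of heparan were called lower in NP in 5 of 9 cases (55.6%) and higher in 2 (22.2%), beside 33.9% and 21.8% of all genes tested. The extracellular 6-O-endosulfatases, which trim sulfate from finished chains, went opposite ways. Sulf1 (ENSMUSG00000016918, chr1:12692277-12861192) stood at 0.139, 0.908, 0.506, 0.0690 and 0.918 scaled FPKM in the NP libraries, against 27.4, 7.94, 20.1, 23.9 and 20.4 in AF, with AF library 9 far below the other AF libraries. Its difference of -3.74 (SE 0.31; limma adjusted p = 8.52e-06) was the largest among the members in this comparison, and was -4.02 without library 9. Sulf1 reached 1 FPKM in 11 of 20 libraries and passed the filter on low values only because of its AF libraries. Sulf2 (ENSMUSG00000006800, chr2:166073089-166155663) stood at 103, 103, 101, 106 and 105 in the NP libraries, against 51.7, 56.3, 54.4, 48.6 and 35.7 in AF, without overlap (1.07, SE 0.12; limma adjusted p = 4.18e-05). Hs3st1, the 3-O-sulfotransferase that makes the antithrombin binding site, stood at 5.03, 2.30, 4.06, 4.21 and 5.04 in the NP libraries, against 17.2, 6.82, 24.2, 10.2 and 13.6 in AF. It too was lower in every NP library (-1.51, SE 0.30; limma adjusted p = 0.00136).

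The enzymes that begin heparan modification were moderately lower in NP. Ndst1 and Ndst2, which replace acetyl groups by sulfate, were lower by 0.76 (-0.76, SE 0.18; limma adjusted p = 0.00409) and by 0.70 (-0.70, SE 0.14; limma adjusted p = 0.00159), and Hs2st1, the 2-O-sulfotransferase, by 0.64 (-0.64, SE 0.18; limma adjusted p = 0.00971). The call of Hs2st1 was lost under quantile normalization (limma adjusted p = 0.301), which moves the median gene by 0.29 towards NP. Hs6st2, a 6-O-sulfotransferase, was low, at 2.11 ± 0.660 in NP against 1.07 ± 0.480 in AF (SD, n = 5). It was called higher in NP (0.59, SE 0.20; limma adjusted p = 0.0253), a call that was lost on leaving out NP vehicle library 1 or 2 or AF vehicle library 8, 10 or 13 (limma adjusted p up to 0.0631), and without both libraries 1 and 2 (0.158). Glce, the heparan epimerase, and Hs6st1 were not called (limma adjusted p = 0.417 and 0.165).

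Supply genes were called higher in NP in 3 of 5 cases (60%) and lower in 0, beside 21.8% and 33.9% of all genes tested. Papss1, which makes PAPS, was at 53.8 ± 2.89 in NP against 27.1 ± 6.29 in AF (SD, n = 5), higher by 0.99 (SE 0.14; limma adjusted p = 0.000158). Papss2, the other PAPS synthase, was at 28.5 ± 6.62 and 37.1 ± 12.2 (SD, n = 5) and was not called (-0.34, SE 0.22; limma adjusted p = 0.225). Ugdh stood at 146, 131, 145, 117 and 106 in the NP libraries, against 73.8, 76.4, 78.4, 76.7 and 62.0 in AF, without overlap (0.80, SE 0.11; limma adjusted p = 0.000181). Slc26a2, a sulfate transporter of the cell membrane, was higher by 0.65 (SE 0.13; limma adjusted p = 0.00119). Ugp2 was level, at 95.0 ± 9.72 in NP against 94.7 ± 27.0 in AF (SD, n = 5; limma adjusted p = 0.859).

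Both tested hyaluronan synthases were called lower in NP, beside 33.9% of all genes tested. Has1 stood at 0, 0.144, 0.0708, 0 and 0.0296 scaled FPKM in the NP libraries, against 2.18, 1.23, 1.55, 2.30 and 1.65 in AF (limma adjusted p = 1.7e-05), and it passed the filter through AF libraries alone. Has2, at 1.08 ± 0.230 in NP against 3.26 ± 1.27 in AF (SD, n = 5), was lower by 0.99 (-0.99, SE 0.21; limma adjusted p = 0.00234), a call lost under quantile normalization (limma adjusted p = 0.0696). Has2 reached 1 FPKM in 14 of 20 libraries and needed AF libraries to pass the filter. Has3 lay between 0.0202 and 0.162 scaled FPKM in the 10 vehicle libraries. Under the scalings tried in the vehicle comparison, the members whose tissue difference changed sign (Ugp2, Chpf2, Dsel, Glce, Hs6st1 and Xylt2) were all ones that had not been called.

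**Figure D3:**
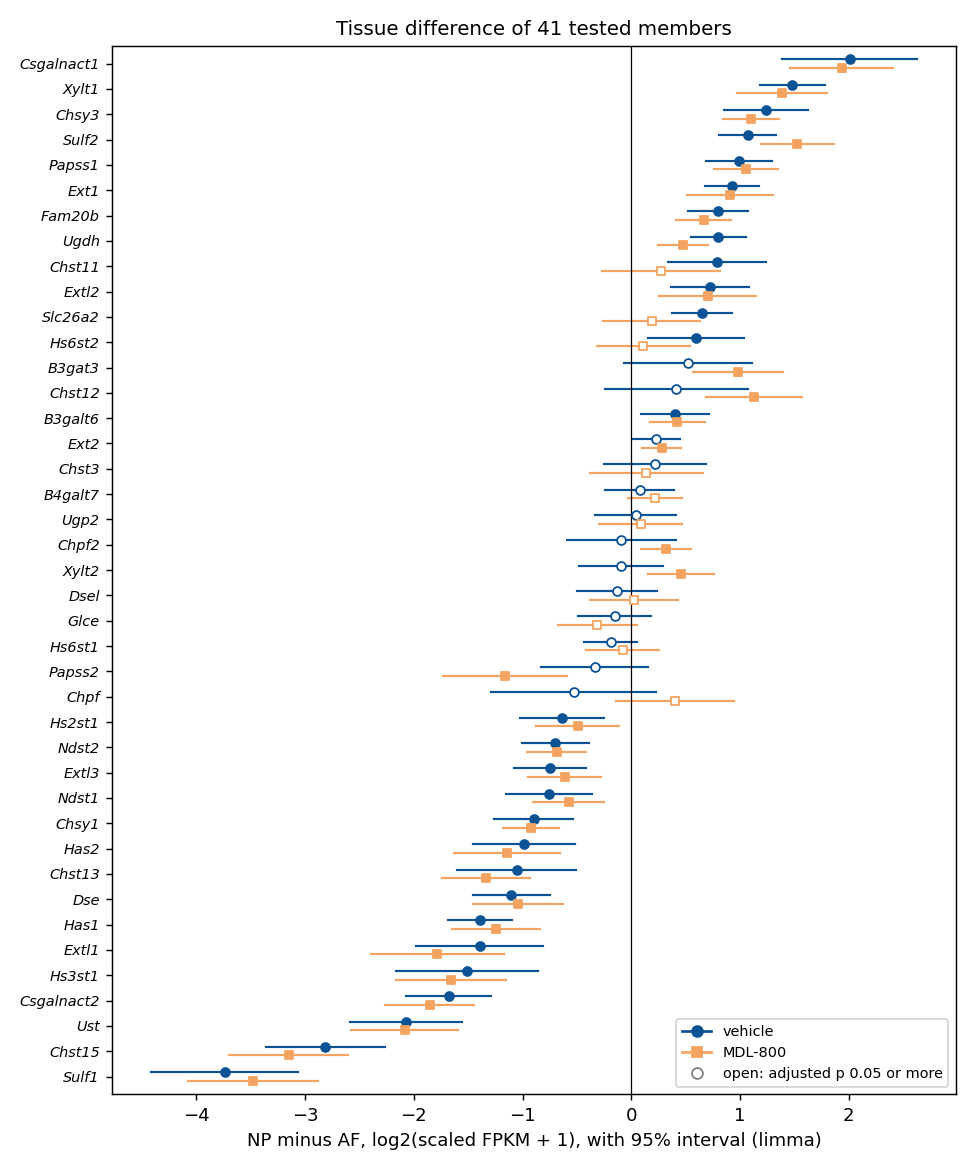
Difference between NP and AF in log2(scaled FPKM + 1) for the 41 tested members, with 95% intervals from limma, in vehicle (dark circles) and MDL-800 (light squares) libraries; open symbols have an adjusted p of 0.05 or more. From Csgalnact1 at 2.01 to Sulf1 at -3.74 in vehicle, the values in both treatments mostly follow each other, and 37 of 41 have the same sign. Some lie further apart, such as Chst11 (0.79 in vehicle, 0.27 in MDL-800) and Slc26a2 (0.65 and 0.19).

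The same comparison in MDL-800-treated mice used libraries not shared with the vehicle comparison. Of 41 members 15 were called higher in NP and 16 lower, beside 25.6% and 37.2% of all genes tested, and 25 did not overlap, beside 49.1%. In both treatments 10 members were higher and 15 lower, and 0 were called in opposite directions. Among those lower, Hs2st1 (-0.49 in MDL-800 libraries) was less firm. Its MDL-800 call held in 4 of 10 fits with a single library left out. It held in 6 of 10 other settings (limma adjusted p up to 0.742). Across the 41 members the 2 sets of differences had a Pearson's r of 0.961, as a description over genes that share libraries within each set. Chst11, Hs6st2 and Slc26a2 were called higher in vehicle mice alone, and B3gat3, Chpf2, Chst12, Ext2 and Xylt2 higher and Papss2 lower in MDL-800 mice alone. For none of these was the change in tissue difference itself past the threshold (limma adjusted p = 0.9997 for each). Chst12 was at 139 ± 18.4 in NP against 65.1 ± 17.8 in AF (SD, n = 5), a difference of 1.13 (SE 0.20; limma adjusted p = 0.000547). For Papss2 the levels were 21.8 ± 2.91 and 53.3 ± 20.6 (SD, n = 5), a difference of -1.16 (SE 0.26; limma adjusted p = 0.00258). Csgalnact1 (1.93), Xylt1 (1.39), Sulf2 (1.53), Sulf1 (-3.48) and Chst15 (-3.15) kept their direction and their call.

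The comparison of MDL-800 with vehicle within NP asked which enzymes the long treatment moved in the core of the disc. Chst12 rose: it was the only member called, with 1 of 41 called higher and 0 lower, beside 0.232% and 0.0183% of all genes tested. Chst12 (ENSMUSG00000036599, chr5:140505550-140525724) encodes a chondroitin 4-O-sulfotransferase of the Golgi. It stood at 53.4, 54.1, 65.1, 76.5 and 97.9 scaled FPKM in the NP vehicle libraries (1, 2, 3, 5 and 6), and at 123, 137, 130.4, 171 and 136 in NP MDL-800 libraries 15, 18, 19, 20 and 22. All treated libraries lay above all control libraries, at 139 ± 18.4 against 69.4 ± 18.5 (SD, n = 5). The difference was 1.02 (SE 0.16; limma adjusted p = 0.0411). The call was lost on leaving out any of 9 of the 10 libraries (limma adjusted p from 0.0526 to 0.133), and held without NP vehicle library 6 (limma adjusted p = 0.0151). It was also lost with no library scaling (0.0723), no filter (0.125), all 4 groups in the fit (0.130) and no variance trend (0.0528), all limma adjusted p, while the difference stayed between 0.81 and 1.15 under every setting tried. By contrast Chst11, the other well-expressed 4-O-sulfotransferase, was at 66.4 ± 15.2 and 61.9 ± 11.3 (SD, n = 5; limma adjusted p = 0.852).

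The members next in order of p were not called. Chpf (ENSMUSG00000032997, chr1:75474569-75479307), which supports chondroitin polymerisation, stood at 1.54, 1.56, 3.62, 3.77 and 3.86 in vehicle and at 5.62, 6.26, 9.83, 9.53 and 8.73 in MDL-800 libraries of NP. These groups did not overlap (1.25, SE 0.24; limma adjusted p = 0.0637), and vehicle libraries 1 and 2 were the lowest. B3gat3 (ENSMUSG00000071649, chr19:8920374-8927236), which completes the linker, stood at 20.6, 18.5, 29.6, 33.1 and 30.1 against 38.1, 33.6, 45.5, 48.3 and 48.9, again without overlap (0.70, SE 0.17; limma adjusted p = 0.101). Dse stood at 11.8, 11.0, 12.0, 11.9 and 10.5 against 9.71, 9.87, 10.2, 9.14 and 9.03, every treated library below every control library by a small margin (-0.23, SE 0.07; limma adjusted p = 0.170). In all, 6 members did not overlap (14.6%), beside 4.5% of all genes tested. At an unadjusted p under 0.05, 6 members lay higher (Xylt2, B3gat3, Chpf, Chpf2, Chst12 and Sulf2) and 5 lower (Dse, Papss2, Slc26a2, Ugdh and Ugp2), beside 9.11% and 4.99% of all genes. Those higher were 2 of 6 linker genes, 2 of 6 chondroitin chain genes, 1 of 8 chondroitin and dermatan modifiers and 1 of 9 heparan modifiers. Those lower were 4 of 5 supply genes and 1 of 8 chondroitin and dermatan modifiers. No role was tested as a set. The median difference over all 41 members was -0.02, beside -0.03 over all genes. The modifiers of chondroitin and dermatan summed to 168 ± 13.9 in vehicle and 229 ± 28.3 in MDL-800 libraries of NP (SD, n = 5), and Chst12 differed most among them. Chpf2 held 76.7% to 86.5% of the pair Chpf2 and Chpf in NP vehicle libraries and 61.0% to 74.9% in NP MDL-800 libraries. The macrophage marker sum overlapped between these groups, at 65.7 to 381 in vehicle and 66.1 to 224 in MDL-800 libraries. The NP marker sum overlapped too, at 25619 to 30794 and 27938 to 32855, but single NP markers did not all do so. Of 9 tested, 3 lay higher with MDL-800 at an unadjusted p under 0.05 and 0 lower, and 3 (33.3%) did not overlap, beside 4.5% of all genes tested. By limma 0 of the 9 were called, and their part in the members' differences was not tested.

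**Figure D4:**
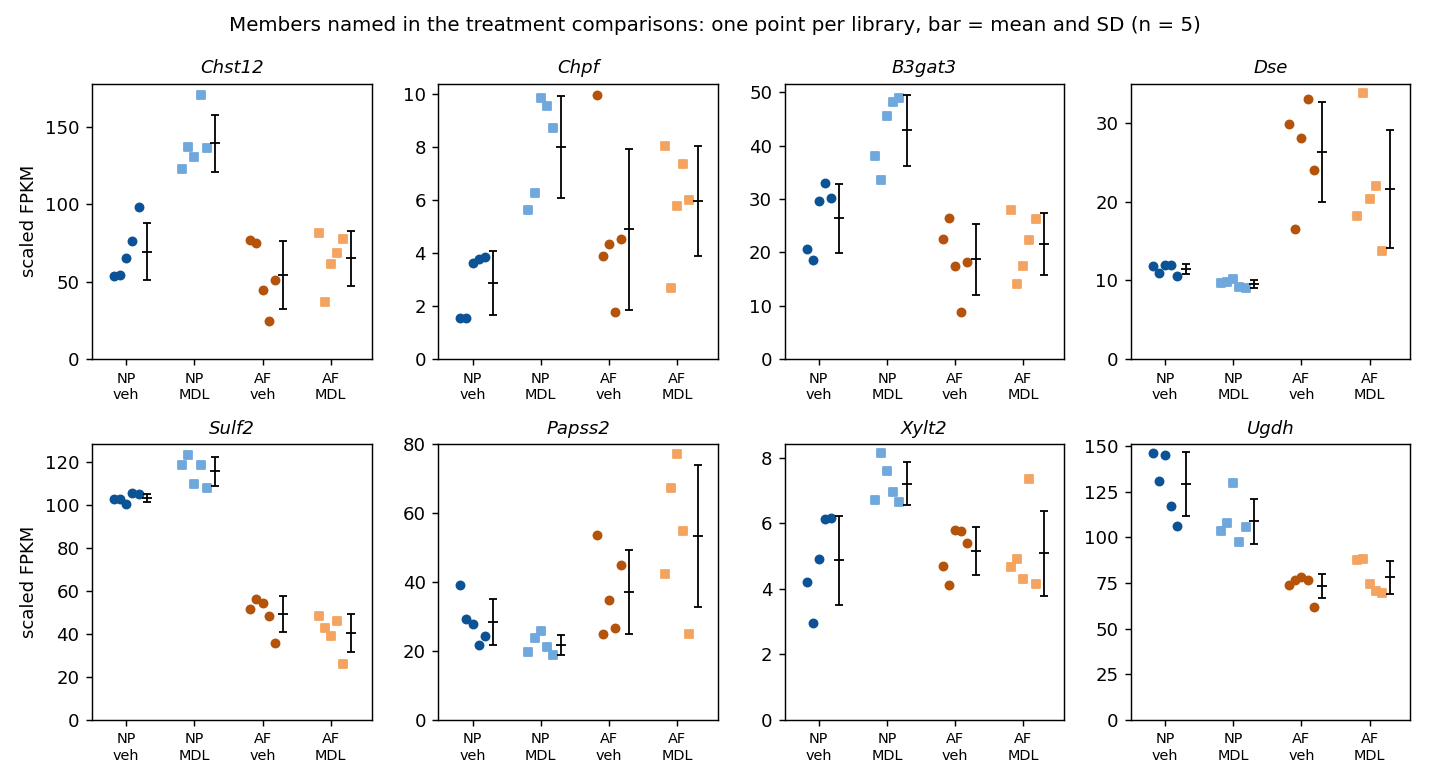
Scaled FPKM of 8 members named in the treatment comparisons, with a point for each library and the mean and SD of each group of 5; the scale of each panel starts at 0. Chst12, Chpf and B3gat3 lie higher in all 5 NP MDL-800 libraries than in all 5 NP vehicle libraries, and the AF groups overlap for all 8 genes.

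GC content moved with the treatment groups in NP. The slope of a library's log2 deviation on transcript GC, per 10 percentage points, lay from -0.285 to -0.00672 in NP vehicle libraries and from 0.0228 to 0.0885 in NP MDL-800 libraries. Vehicle libraries 1 and 2 stood apart at -0.285 and -0.278. Over the 41 members the NP treatment difference and transcript GC had a Pearson's r of 0.609, as a description of genes measured in the same libraries. The 6 members higher at an unadjusted p under 0.05 had a median GC of 58.2% and the 5 lower members 44.7%, beside 49.9% over the tested members and 49.3% over all genes tested. With the GC trend of each library removed, Chst12 was at 0.88 (limma adjusted p = 0.0367), Chpf at 1.08 (0.0610) and B3gat3 at 0.46 (0.150). Without both vehicle libraries 1 and 2, Chst12 was at 0.81 (limma adjusted p = 0.110), Chpf at 0.89 (0.144) and B3gat3 at 0.45 (0.283). Beyond these settings, the part of GC in the treatment and tissue differences was not tested.

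**Figure D5:**
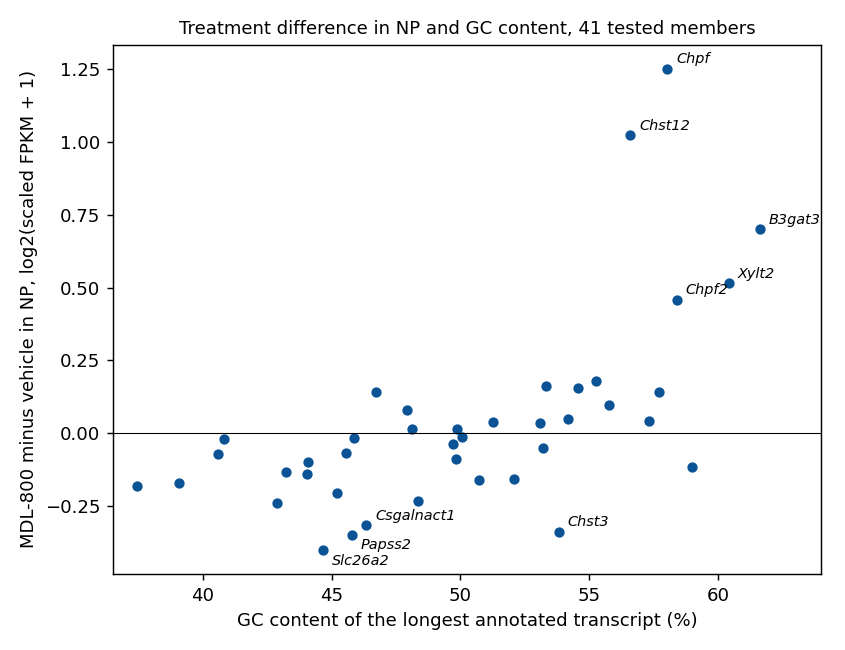
Difference between MDL-800 and vehicle in NP, in log2(scaled FPKM + 1), against the GC content of the longest annotated transcript in percent, with a point for each of the 41 tested members and names for those past 0.3 in either direction. Chpf, Chst12, B3gat3, Xylt2 and Chpf2, the highest points, all lie above 55% GC, and the points lower than -0.3 lie below 55%.

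The promoters of the 3 members with the largest positive differences in NP are shown because these genes lay higher together. They are RefSeq sequences of GRCm38.p6, from 250 bases before to 50 after the annotated start, read 5′ to 3′ on the gene's strand, with each GCGTG or its complement CACGC in capitals. Chst12 is at chr5:140505359-140505658 on the plus strand, Chpf at chr1:75479422-75479721 on the minus strand and B3gat3 at chr19:8920143-8920442 on the plus strand. The gene coordinates given earlier are those of GENCODE, whose starts differ from the RefSeq starts used here. The Chpf window lies wholly before the GENCODE start of that gene.
Chst12: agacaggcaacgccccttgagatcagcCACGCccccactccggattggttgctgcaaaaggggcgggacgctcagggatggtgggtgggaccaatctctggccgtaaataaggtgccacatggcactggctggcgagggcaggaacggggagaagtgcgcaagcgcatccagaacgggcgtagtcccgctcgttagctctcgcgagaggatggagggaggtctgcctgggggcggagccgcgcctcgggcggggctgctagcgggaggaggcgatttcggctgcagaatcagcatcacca
Chpf: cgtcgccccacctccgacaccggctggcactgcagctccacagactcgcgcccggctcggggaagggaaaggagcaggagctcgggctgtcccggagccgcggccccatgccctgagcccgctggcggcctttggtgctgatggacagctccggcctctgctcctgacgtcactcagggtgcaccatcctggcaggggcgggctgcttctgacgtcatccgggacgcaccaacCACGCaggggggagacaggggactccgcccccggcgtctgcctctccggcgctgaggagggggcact
B3gat3: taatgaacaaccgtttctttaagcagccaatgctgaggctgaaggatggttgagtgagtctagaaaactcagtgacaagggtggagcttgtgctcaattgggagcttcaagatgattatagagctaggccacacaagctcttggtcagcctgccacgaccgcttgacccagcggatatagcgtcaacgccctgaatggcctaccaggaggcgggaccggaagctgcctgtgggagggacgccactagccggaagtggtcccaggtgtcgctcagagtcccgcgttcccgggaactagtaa
GCGTG is a core of the element that hypoxia-inducible factors can bind. It was found on either strand once each in the windows of Chst12 and Chpf, and these letters are not in that of B3gat3. RefSeq promoters were matched for 33 of the 43 members, 42 windows in all. Of these 57.1% held GCGTG, beside 32.4% of all 32851 promoters, and 23.8% held ACGTG, the other form of that core, beside 19.6%. TGGAAA, the core of the tonicity element, was in 16.7% of member promoters and 21.4% of all. AACAAT, a SOX core, was in 7.14% and 10.7%. All 4 motifs were searched on both strands and counted separately, overlaps included. The median GC of member promoters was 66.2%, beside 52.7% over all, which bears on how often a GC-rich word is found. These matches are descriptions of sequence.

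In AF no member passed. By limma 0 of 41 were called in either direction, as were 0.0% of all genes tested, and 0 had an unadjusted p under 0.05, beside 1.65% of all genes. Sulf2 stood at 51.7, 56.3, 54.4, 48.6 and 35.7 in vehicle and at 48.5, 42.6, 39.0, 46.0 and 25.8 in MDL-800 libraries 25, 27, 28, 29 and 30 (-0.30, SE 0.18). Chst11 stood at 48.5, 41.3, 30.2, 25.6 and 46.8 against 55.9, 51.1, 75.9, 57.5 and 26.0 (0.42, SE 0.28). In both the groups overlapped, and AF MDL-800 library 30 was the lowest of its group. Papss2 stood at 53.6, 25.0, 34.9, 26.7 and 45.1 against 42.3, 67.4, 77.1, 54.8 and 25.0 (0.47, SE 0.31), and Extl1 at 5.05, 2.75, 4.44, 2.85 and 6.19 against 3.19, 7.68, 9.89, 7.98 and 3.28 (0.43, SE 0.31). These are the 4 members with the smallest p in AF, and their intervals include 0, for example from -0.70 to 0.11 for Sulf2 and from -0.22 to 1.16 for Papss2. Chst12 in AF was at 54.5 ± 22.1 in vehicle and 65.1 ± 17.8 in MDL-800 libraries (SD, n = 5), a difference of 0.31 with an interval from -0.40 to 1.02.

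Whether the treatment effect differed between the tissues was tested as a contrast over all 4 groups. By limma 0 of 41 members were called, as were 0.0% of all genes tested, and 5 had an unadjusted p under 0.05, beside 3.73% of all genes. The 4 with the smallest p were Xylt2 (0.55, SE 0.22), Sulf2 (0.46, SE 0.20), Papss2 (-0.82, SE 0.36) and Ugdh (-0.32, SE 0.15), all with a limma adjusted p of 0.9997. Xylt2 stood at 4.20, 2.94, 4.92, 6.11 and 6.15 in vehicle against 6.71, 8.14, 7.60, 6.94 and 6.65 in MDL-800 libraries of NP, but at 4.71, 4.11, 5.79, 5.77 and 5.41 against 4.66, 4.91, 4.31, 7.34 and 4.14 in AF. Sulf2 in NP stood at 103, 103, 101, 106 and 105 in vehicle and 119, 124, 110.1, 119 and 108 in MDL-800 libraries, without overlap, while its AF groups overlapped. In NP, Papss2 stood at 39.1, 29.4, 27.7, 21.8 and 24.4 in vehicle and 19.7, 23.8, 25.8, 21.1 and 18.8 in MDL-800 libraries. Ugdh stood at 146, 131, 145, 117 and 106 against 104, 108, 129.6, 97.3 and 106 in NP, and at 73.8, 76.4, 78.4, 76.7 and 62.0 against 87.6, 88.1, 74.5, 70.4 and 69.5 in AF, with overlap in both tissues. For Chst12 the contrast was 0.71, with an interval from -0.08 to 1.50, so that its difference in NP was not shown to exceed that in AF.

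Other genes of the pathway, from lists chosen as the members were, gave a setting for the tissue comparison in vehicle mice. Of 19 tested genes of glycosaminoglycan degradation, 2 were called higher in NP (10.5%) and 7 lower (36.8%), beside 21.8% and 33.9% of all genes tested. Hpse, the heparanase that cuts heparan chains, was at 1.03 ± 0.492 in NP against 6.71 ± 1.71 in AF (SD, n = 5), a difference of -1.92 (SE 0.21; limma adjusted p = 3.62e-05). Of 19 genes of precursor supply and transport, 7 were higher (36.8%) and 5 lower (26.3%). Impad1, the Golgi phosphatase that clears the by-product of sulfation, was at 85.6 ± 8.56 in NP against 40.1 ± 5.97 in AF (SD, n = 5; difference 1.08, SE 0.12; limma adjusted p = 4.47e-05). Pgm1, a phosphoglucomutase, was at 5.18 ± 0.772 and 13.3 ± 1.66 (SD, n = 5; -1.21, SE 0.12; limma adjusted p = 2.46e-05).

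Hyaluronan-binding genes were called lower in NP in 7 of 8 tested cases (87.5%) and higher in 0, beside 33.9% and 21.8% of all genes tested. Lyve1 and Stab1, receptors known from lymphatic and sinusoidal endothelium and from macrophages, led them, with Lyve1 at 0.499 ± 0.192 in NP against 29.3 ± 13.2 in AF (SD, n = 5; -4.23, SE 0.28) and Stab1 at 0.933 ± 0.645 and 14.5 ± 5.69 (SD, n = 5; -2.98, SE 0.28). Only 8 of the 11 listed genes passed the filter of 1 FPKM in 5 or more libraries. In this and the other lists, genes near 0 in NP could pass through AF libraries alone, and these were not counted. The macrophage and endothelial markers given above were higher in AF as well, and their part in the hyaluronan-binding differences was not tested. Of 22 proteoglycan core proteins, 7 were higher (31.8%) and 8 lower (36.4%). Prg4, the lubricin of joint surfaces, was at 25.9 ± 16.6 in NP against 1077 ± 426 in AF (SD, n = 5) and Bgn, biglycan, at 67.7 ± 14.8 and 980.1 ± 451 (SD, n = 5). Of 9 other sulfotransferases and related transferases, 1 was higher (11.1%) and 3 lower (33.3%), with B4galt4 at 0.868 ± 0.400 in NP against 5.19 ± 2.03 in AF (SD, n = 5) and B4galt1, which makes N-acetyllactosamine, at 21.5 ± 1.91 and 37.5 ± 8.13 (SD, n = 5). In the NP treatment comparison limma called 0 genes of these 5 lists in either direction. At an unadjusted p under 0.05 there were 3 higher and 1 lower among degradation genes, 5 lower among precursor genes, 3 higher among core proteins, 1 higher among the other transferases and 0 among the hyaluronan-binding genes. Over all genes tested 9.11% were higher and 4.99% lower at that threshold, beside 15.8% and 5.26% of the degradation genes, 0% and 26.3% of the precursor genes and 13.6% and 0% of the core proteins. In AF, 1 core protein gene alone had an unadjusted p under 0.05, and 0 genes were called.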

How the data were processed

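Whole-transcriptome RNA was sequenced in 20 libraries; per the labels' protocols an input of 50 ng was depleted of ribosomal RNA, and stranded libraries were amplified for 14 cycles. The authors deposited a table of FPKM values with 2 decimals for 51789 genes. The submitters' processing notes name STAR 2.7.11b and mm10; the counter, the annotation and the sharing of reads between like genes are not given in the sources used here. FPKM values were divided by a median-ratio factor for each library (0.933 to 1.06), from the 11308 genes that reached 1 FPKM in every library. Tests ran on log2(scaled FPKM + 1) for the 16383 genes that reached 1 FPKM in 5 or more libraries, with limma 3.58.1 (variance trend, two-sided) in R 4.3.3. The 2 groups compared made up each fit, or all 4 for the difference of effects, with Benjamini-Hochberg adjustment over all genes tested. The method was tested on simulated data. Depth was estimated from low values of single-exon genes (6641 genes, 400 to 1200 nt). Coordinates and GC came from GENCODE M21 (GRCm38). The members and all lists were chosen with earlier results of these data known. Named genes are the called members in the tissue comparison, called members plus those among the 4 smallest p in the treatment comparisons, and the 2 called genes of smallest p in each pathway list, of which 1 gene is not reported here. The alternatives tried were other scalings, pseudocount, filters, fits and libraries left out. Added after seeing the data were a block on the numbers in the column headers, the removal of GC trends and leaving out NP vehicle libraries 1 and 2.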

Additional observations from a re-analysis of the deposited data

Results flagged for a closer look

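In groups of 5 libraries, 8 of 164 member and group combinations held a library whose gap to the nearest of the others exceeded 0.71 of the group's range; chance flags about 1 in 20. In AF vehicle library 9, which had the highest NP marker sum in AF, Ust was at 3.64 scaled FPKM (others 6.61 to 8.23) and Sulf1 at 7.94 (others 20.1 to 27.4). In NP MDL-800 library 18, Csgalnact1 was at 109 (others 141 to 151) and Papss1 at 44.5 (others 52.6 to 55.7). The other flags were Xylt2 at 7.34 in AF MDL-800 library 29 (others 4.14 to 4.91), Fam20b at 26.6 in AF MDL-800 library 30 (others 35.3 to 38.7), Dsel at 12.6 in NP vehicle library 2 (others 8.63 to 9.25) and Ugdh at 62.0 in AF vehicle library 13 (others 73.8 to 78.4). Causes of these values were not tested.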

How the results depend on the processing

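The counts of members called in both tissue comparisons stayed within 1.5 times under all alternatives: 11 to 17 higher and 12 to 16 lower in vehicle, 14 to 18 and 13 to 17 in MDL-800 libraries. Of 586 alternative values of the 28 named members in vehicle, 569 kept direction and call and 17 lost the call. In MDL-800 libraries, 543 of 558 kept their direction and stayed called or not called as in the main fit. These include values of Chst11, Slc26a2 and Hs6st2, which were not called there. A call was lost in 13, of which 10 were values of Hs2st1. Hs6st2 was called under quantile normalization (0.65). It changed sign without AF MDL-800 library 28 (-0.052, with a range from -0.052 to 0.252 on leaving out single libraries). Of the genes called between tissues in vehicle mice, 39.2% were higher in NP, against 62.3% with quantile normalization, 51.7% with upper-quartile scaling and 34.3% without scaling; in MDL-800 mice it was 40.7%, 61.7%, 52.7% and 35.1%. Those scalings moved the median gene by 0.29, 0.16 and -0.06 in vehicle and by 0.29, 0.16 and -0.07 in MDL-800 mice.

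For MDL-800 against vehicle in NP the count of members called higher was 1; it was 0 with no library scaling, 0 with no filter, 0 with all 4 groups in the fit, 0 with no variance trend and 0 without both NP vehicle libraries 1 and 2, and 0 to 2 on leaving out single libraries. It was 2 (Chst12 and Chpf) without NP vehicle library 6; the cause was not tested. In AF and for the difference of effects, no alternative gave a call. The column headers carry a second number shared by NP and AF libraries. Deviations of libraries with the same number correlated from -0.18 to 0.29 over 5 vehicle pairs and from -0.18 to 0.17 over 3 MDL-800 pairs. Between unlike numbers they ran from -0.37 to 0.33 and from -0.17 to 0.23. With 5 libraries to choose from, 4 of 10 and 2 of 6 libraries correlated best with their own number. With so few pairs and AF libraries of unlike cell content, these values cannot show whether a number marks the same mouse. With that number as a replicate block, 13 members were higher and 15 lower in vehicle, and 14 and 14 in MDL-800. Depth limits low members such as Has1, Has3, Chst7 and Chst13, where values near 0 rest on few reads.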
